A study of Homo sapiens
Mus musculus with 16 samples.

Results

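Tumours of mice given phenelzine alone were compared with tumours of mice given vehicle, in the tumour's own (human) genes and in the genes of the host tissue inside the tumour (mouse). The comparison takes 4 phenelzine and 4 vehicle libraries, 8 of the 16 libraries of the study, chosen by their treatment label and not by any measured value. Each tumour grew in the mammary fat pad of a Balb/c nude mouse from an injection of 2 M cells (M, 1e+06) in 50 µl. The cells were MDA-MB-231, a line from a human breast cancer of the triple-negative kind. Mice received phenelzine daily from day 15, at 40 mg/kg, or vehicle only, both into the peritoneum, and tumours were excised at day 50. Of the other 8 libraries, 4 came from mice given nab-paclitaxel (paclitaxel, a taxane, bound to albumin) at 30 mg/kg on days 15, 22 and 29, together with the same phenelzine schedule (the combination), and 4 from mice given nab-paclitaxel alone. Each library is 1 tumour from 1 mouse, all tumours came from 1 cell line, and nude mice lack mature T cells while keeping other immune cells.

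Phenelzine is an antidepressant that irreversibly blocks both monoamine oxidases, the mitochondrial enzymes that break down serotonin, noradrenaline and dopamine. Its hydrazine group also reacts with other enzymes, among them the lysine demethylase LSD1, a flavin enzyme related to the monoamine oxidases. LSD1 removes methyl groups from histone H3 and works within complexes that mostly silence genes. In tumours it has been studied for roles in cell identity and in how tumour cells meet the immune system.

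Human genes had 30.2 to 34.5 M counts per library with phenelzine and 23.7 to 33.5 M with vehicle. Mouse genes had 3.46 to 6.18 M with phenelzine and 5.21 to 14.4 M with vehicle. After a filter on low counts, 18131 human and 15074 mouse genes were tested, each species normalised on its own. The files give Ensembl gene IDs that they do not pair with symbols, and 0 IDs of either species matched the gene table at hand. Genes are therefore described by their level, size of shift and rank, with no function, and 4 IDs, picked after their values were seen, are printed: 2 higher and 2 lower with phenelzine. The markers of the cell line and of host cell types, and the targets of phenelzine, could not be looked up for the same reason.

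One vehicle library stood apart before any gene was compared. Mouse genes took 37.8% of all counts in vehicle 2, against 13.8%, 19.0% and 13.6% in vehicle 1, 3 and 4. The same library lay at 94.9 on the first principal component of the mouse genes, which held 35.6% of the variance of the 8 libraries, while the other 7 lay between -46.1 and 31.3. It also had the most mouse genes with a count, 21189, against 16905 to 18507 with phenelzine and 17362 to 18558 in the other vehicle libraries. On human genes the first 2 components held 19.3% and 16.9% of the variance. Phenelzine 1, 2 and 4 lay at 17.8, 24.4 and 20.4 on the first, above all vehicle libraries, which lay between -25.1 and 10.0. Phenelzine 3 lay at -27.6, below every vehicle library. The counts of host genes, their spread and the folds described one by one are given below with and without vehicle 2.

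The share of host RNA was 9.97%, 15.2%, 9.25% and 16.1% in the phenelzine tumours. In the vehicle tumours it was 13.8%, 37.8%, 19.0% and 13.6%. The groups overlapped, and all 4 phenelzine values lay below the 2 highest vehicle values. The means were 12.6% ± 3.54 with phenelzine and 21.1% ± 11.5 with vehicle (SD, n = 4 each), a difference of -8.40 percentage points. The exact two-sided permutation test gave p = 0.171, where 0.0286 is the smallest value that 4 against 4 can give. Without vehicle 2 the difference was -2.81 points. In bulk tissue, fewer host cells, less RNA per host cell, and more tumour cells or tumour RNA cannot be told apart.

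**Figure D1:**
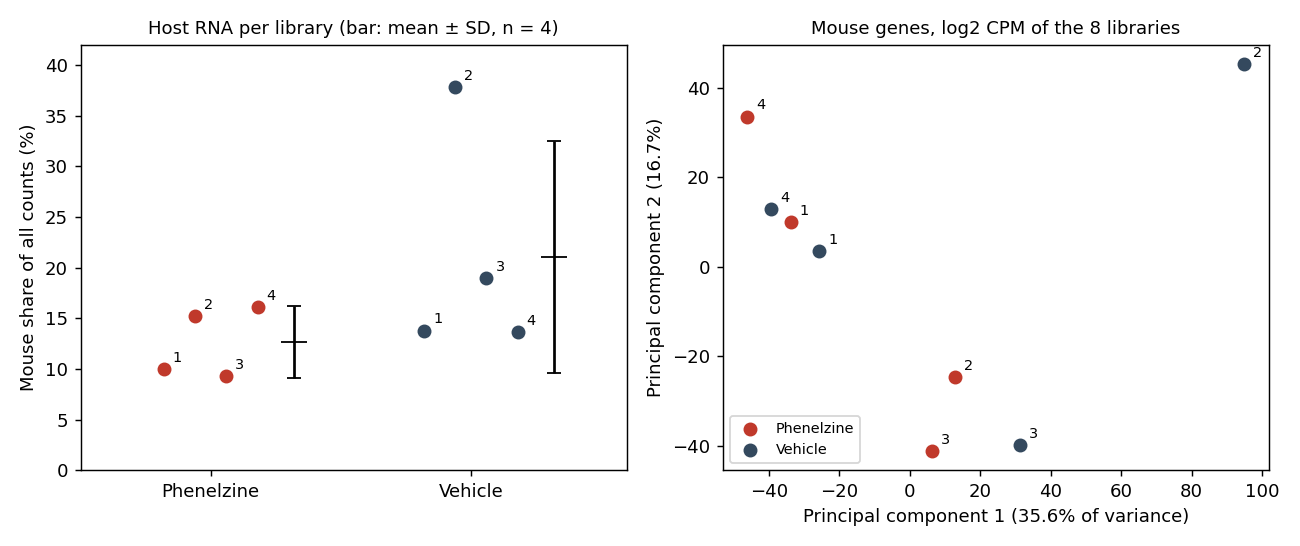
Left, mouse share of all counts (%) in each of the 4 phenelzine and 4 vehicle tumours, numbered by replicate, with the mean and SD beside each group. Right, the 8 libraries on the first 2 principal components of log2 CPM of the mouse genes. Vehicle 2, at 37.8% and at 94.9 on the first component, lies away from the other 7 libraries in both plots.

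No gene of either species passed the test, so phenelzine alone gave 0 changed tumour genes and 0 changed host genes (0% of each) at a Benjamini-Hochberg adjusted p under 0.05 in edgeR's quasi-likelihood test. The lowest unadjusted p was 0.00018 among human genes, with an adjusted p of 1, and 0.000137 among mouse genes, with an adjusted p of 0.674. A single call would have needed about 2.76e-06 and 3.32e-06. At an unadjusted p under 0.05 there were 426 human genes (2.35%), of which 222 were higher (1.22%) and 204 lower (1.13%). There were 921 such mouse genes (6.11%), of which 269 were higher (1.78%) and 652 lower (4.33%). Uniform p-values would give 5%. In this fit, of all 16 libraries, the human count lay below that level and the mouse count slightly above it. The order was reversed in the fit of the 8 libraries alone, with 771 of 16674 human and 478 of 13609 mouse genes, both under 5%. Without vehicle 2 the mouse count, 569 of 15032, was also under 5%. With library totals in place of TMM factors, the human split was 257 higher and 152 lower. Under other tests of the same libraries, limma voom with quality weights called 0 human and 0 mouse genes, while DESeq2 called 4 human (0.0221%) and 11 mouse genes (0.073%).

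The shifts in tumour genes were small. The median absolute log2 fold change over human genes was 0.14, and the 95th percentile was 0.82. For scale, nab-paclitaxel against the same vehicle libraries had a median of 0.29. The 95% interval of the fold change lay wholly within 2-fold of no difference for 11519 of the 18106 human genes that had an interval (63.6%), and within 1.5-fold for 39.3%. Of 11488 human genes whose higher group averaged 5 CPM (counts per M, TMM-scaled) or more, 51 differed by over 2-fold, 23 higher and 28 lower. At 100 CPM and above, 92.9% of 2491 human genes had an interval within 2-fold, and 3 differed by over 2-fold.

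With all libraries, differences in host genes were somewhat larger than in tumour genes and more often downward. The median absolute log2 fold change over mouse genes was 0.21 and the 95th percentile 1.16, against a median of 0.25 for nab-paclitaxel over the same vehicle libraries. Without vehicle 2 the mouse median was 0.18 and the 95th percentile 1.04, beside 0.16 and 0.99 over human genes without it. These gene sets differ in level: 3972 human genes averaged under 1 CPM over the 8 libraries, against 418 mouse genes. At 20 to 100 CPM, with all libraries, the median was 0.094 in human and 0.157 in mouse genes. At 100 CPM and above it was 0.081 and 0.153. Mouse genes also had fewer counts per library than human genes, and the part of this in the sizes was not tested. The interval lay wholly within 2-fold for 8797 of 15074 mouse genes (58.4%) and within 1.5-fold for 30.1%. Among 12224 mouse genes whose higher group averaged 5 CPM or more, 84 were over 2-fold higher and 412 over 2-fold lower. This lopsidedness moved with vehicle 2: with fold changes fitted without that library, the same counts were 99 higher and 193 lower. The 5 CPM condition was still taken from all libraries, so the 193 can include genes that met it only through vehicle 2. The counts at an unadjusted p under 0.05 were 314 higher and 255 lower without it, with 306 of the 921 genes kept.

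**Figure D2:**
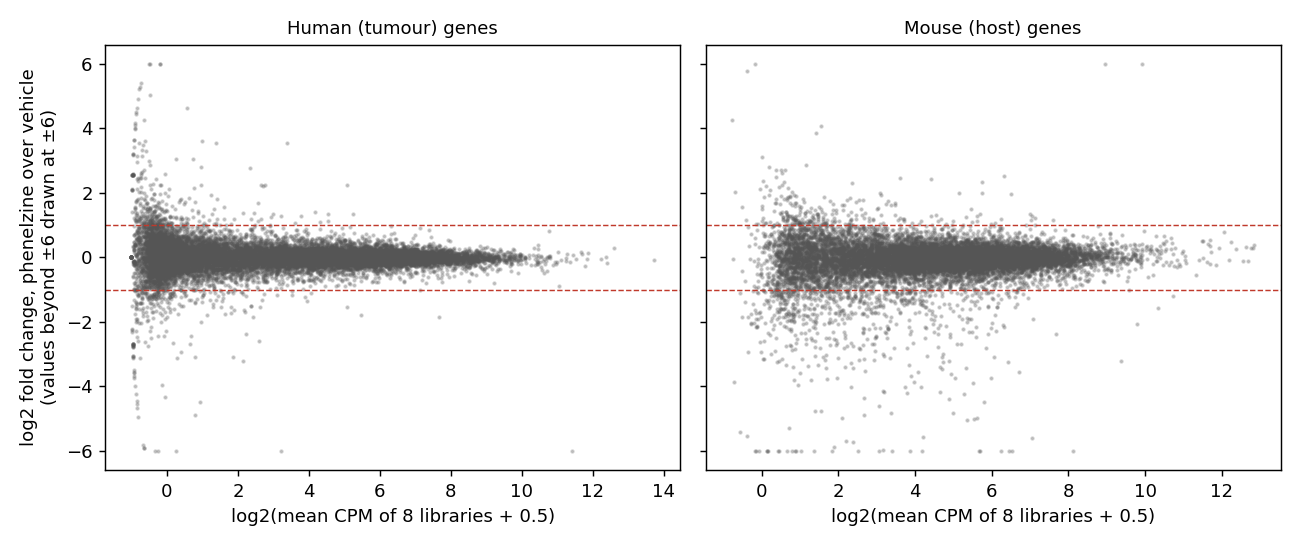
Log2 fold change, phenelzine over vehicle, against the log2 of the mean CPM of the 8 libraries plus 0.5, for 18131 human genes (left) and 15074 mouse genes (right). Points beyond 6 in either direction are drawn at 6, and dashed lines mark 2-fold. Human points narrow around 0 as the level increases, while mouse points trail downward at middle levels, where 412 genes that averaged 5 CPM or more in the higher group were over 2-fold lower and 84 over 2-fold higher.

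Vehicle 2 was the highest of the 8 libraries for 504 of the 652 mouse genes that were lower at an unadjusted p under 0.05 (77.3%). Over all mouse genes tested it was the highest for 26.3%. Of the 412 mouse genes over 2-fold lower it was highest for 305 (74.0%). The 652 genes were chosen by this contrast, so their levels describe it and are no test. Relative to the vehicle mean, their median log2 level was -0.79, -0.58, -0.56 and -0.76 in the phenelzine libraries. It was -0.16, 0.75, -0.09 and -0.49 in the vehicle libraries. Vehicle 4, with a host share of 13.6%, lay nearest to the phenelzine libraries, and vehicle 2 lay above all others. Vehicle 1, with a similar host share of 13.8%, lay at -0.16, above vehicle 4.

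Vehicle libraries were more spread than phenelzine libraries in host genes and not in tumour genes. The median SD of log2(CPM + 0.5) over mouse genes was 0.293 with phenelzine and 0.428 with vehicle, and the vehicle SD was the larger in 68.7% of genes. Without vehicle 2 the vehicle median was 0.334. Over human genes the medians were 0.210 with phenelzine and 0.202 with vehicle. They were 0.298 with nab-paclitaxel and 0.365 with the combination, the groups that share the estimate of the spread in the fit of all 16 libraries. Distances between libraries of different groups lay within or beside those inside the groups. The median root mean square log2 distance over human genes was 0.513 within phenelzine, 0.505 within vehicle and 0.508 between them. Phenelzine 3 was nearer to the vehicle libraries, at 0.465 to 0.503, than to the other phenelzine libraries, at 0.517 to 0.525. Over mouse genes the median distance was 0.804 within phenelzine, 0.934 within vehicle and 0.865 between them. Without vehicle 2 it was 0.804, 0.909 and 0.830.

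Leaving out 1 library at a time showed which libraries carried the host counts. Without vehicle 4, 830 mouse genes were higher and 1189 lower at an unadjusted p under 0.05, the largest counts of the 8 omissions. Without vehicle 2 the lower genes were the fewest, at 255, and they were outnumbered by higher ones. Across the other 6 omissions at most 312 were higher, and 468 to 847 were lower. Human genes at an unadjusted p under 0.05 were most numerous without phenelzine 3, at 605, against 349 to 410 in the other omissions.

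**Figure D3:**
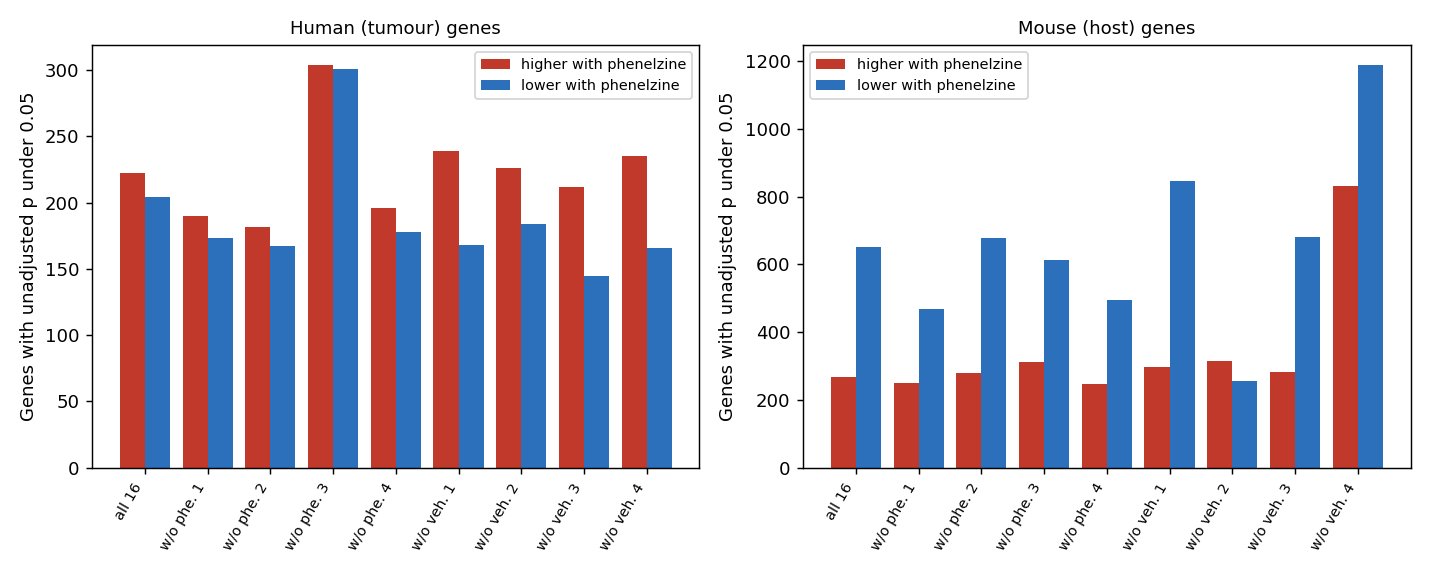
Number of genes with an unadjusted p under 0.05 that were higher (red) or lower (blue) with phenelzine than with vehicle, with all 16 libraries and without each phenelzine or vehicle library in turn, for human (left) and mouse genes (right). Mouse counts were 269 higher and 652 lower with all libraries, 314 and 255 without vehicle 2, and 830 and 1189 without vehicle 4.

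Genes whose 4 phenelzine libraries all lay on one side of the 4 vehicle libraries were ranked by p. Groups set apart in this way occurred in 524 human genes (2.89%), 250 higher (1.38%) and 274 lower (1.51%), and in 305 mouse genes (2.02%), 161 higher (1.07%) and 144 lower (0.955%). Those whose higher group averaged 5 CPM or more numbered 152 higher and 189 lower human genes, and 125 higher and 125 lower mouse genes. From these, the 8 with the lowest p and the 3 with the largest fold change were taken in each direction, which gave 9 higher and 10 lower human genes and 9 higher and 11 lower mouse genes. They were chosen by this contrast, so their values describe it. Folds ran from 1.24 to 4.79 among the higher human genes and from 1.34 to 3.46 among the lower ones. They ran from 1.56 to 4.03 among the higher mouse genes and from 1.40 to 5.18 among the lower ones.

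The largest upward tumour shift among the ranked genes was in the human gene ENSG00000181029. It had 50.2, 52.0, 58.0 and 61.1 CPM in the phenelzine tumours, against 11.2, 11.7, 13.0 and 10.3 CPM in the vehicle tumours. The lowest phenelzine value was well above the highest vehicle value, and neither group was wide. The log2 fold change was 2.26 (SE 0.628, 95% interval 0.92 to 3.60), with an edgeR adjusted p of 1 when all 16 libraries shared 1 estimate of the spread. It had 32.4, 56.4, 7.83 and 8.90 CPM with the combination and 33.0, 7.59, 40.5 and 6.83 CPM with nab-paclitaxel alone, so both groups given nab-paclitaxel spanned the phenelzine and vehicle levels. In the fit of the 8 phenelzine and vehicle libraries alone, whose spread leaves those groups out, it was the single human gene called of 16674 (0.006%), with an edgeR adjusted p of 6.1e-05. The DESeq2 adjusted p on all 16 libraries was 0.202.

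Human gene ENSG00000205643 had the lowest p of all tumour genes. It had 1.80, 1.96, 1.23 and 2.70 CPM with phenelzine, against 6.90, 8.88, 3.23 and 6.05 CPM with vehicle. All phenelzine tumours lay below all vehicle tumours, with vehicle 3 closest to them. The log2 fold change was -1.70 (SE 0.345, 95% interval -2.44 to -0.97), with an edgeR adjusted p of 1 and a DESeq2 adjusted p of 0.00615. With the combination it had 6.68, 3.33, 5.93 and 9.22 CPM, against 5.53, 4.81, 3.79 and 4.56 CPM with nab-paclitaxel alone, a log2 fold change of 0.43 (95% interval -0.29 to 1.15, edgeR adjusted p 1). Its counts were 41 to 81 per library with phenelzine and 85 to 214 with vehicle, so it is a gene of low level.

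The top higher gene by p had 34.4, 33.6, 25.9 and 23.8 CPM with phenelzine, against 19.9, 19.9, 18 and 18.9 CPM with vehicle, a log2 fold change of 0.62. The second had 79.5, 62.8, 66.1 and 67.1 CPM with phenelzine, against 46.3, 46.7, 48.3 and 29.4 CPM with vehicle, a log2 fold change of 0.69. In both, every phenelzine tumour lay above every vehicle tumour, at shifts under 2-fold. The lower gene at rank 2 had 142, 152, 180 and 148 CPM with phenelzine, against 227, 224, 187 and 195 CPM with vehicle, a log2 fold change of -0.42. The largest downward shift was in a gene with 25.6, 11.1, 14.1 and 27.9 CPM with phenelzine, against 80.0, 69.4, 51.3 and 71.4 CPM with vehicle, a log2 fold change of -1.79. That gene had 3.45, 3.19, 83.9 and 12.8 CPM with nab-paclitaxel alone, a wider range than both groups together.

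Host gene ENSMUSG00000059824 was about 4-fold higher with phenelzine. It had 72.2, 54.9, 38.3 and 57.2 CPM in the phenelzine tumours, against 18, 15.6, 9.34 and 12.8 CPM in the vehicle tumours. The lowest phenelzine tumour had over 2 times the level of the highest vehicle tumour. The log2 fold change was 2.00 (SE 0.427, 95% interval 1.09 to 2.91), with an edgeR adjusted p of 0.674 and a DESeq2 adjusted p of 0.0112. Without vehicle 2 it was 2.08, and over all alternatives it ran from 1.87 to 2.20.

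Host gene ENSMUSG00000055116 was lower with phenelzine by about 2-fold. It had 11.9, 18.6, 24.3 and 22.5 CPM with phenelzine, against 34.2, 36.7, 36.3 and 56.3 CPM with vehicle. No phenelzine tumour reached the level of a vehicle tumour, and vehicle 2 was not the highest of its group. The log2 fold change was -1.08 (SE 0.224, 95% interval -1.56 to -0.60), with an edgeR adjusted p of 0.674 and a DESeq2 adjusted p of 0.0112. Without vehicle 2 it was -1.12.

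**Figure D4:**
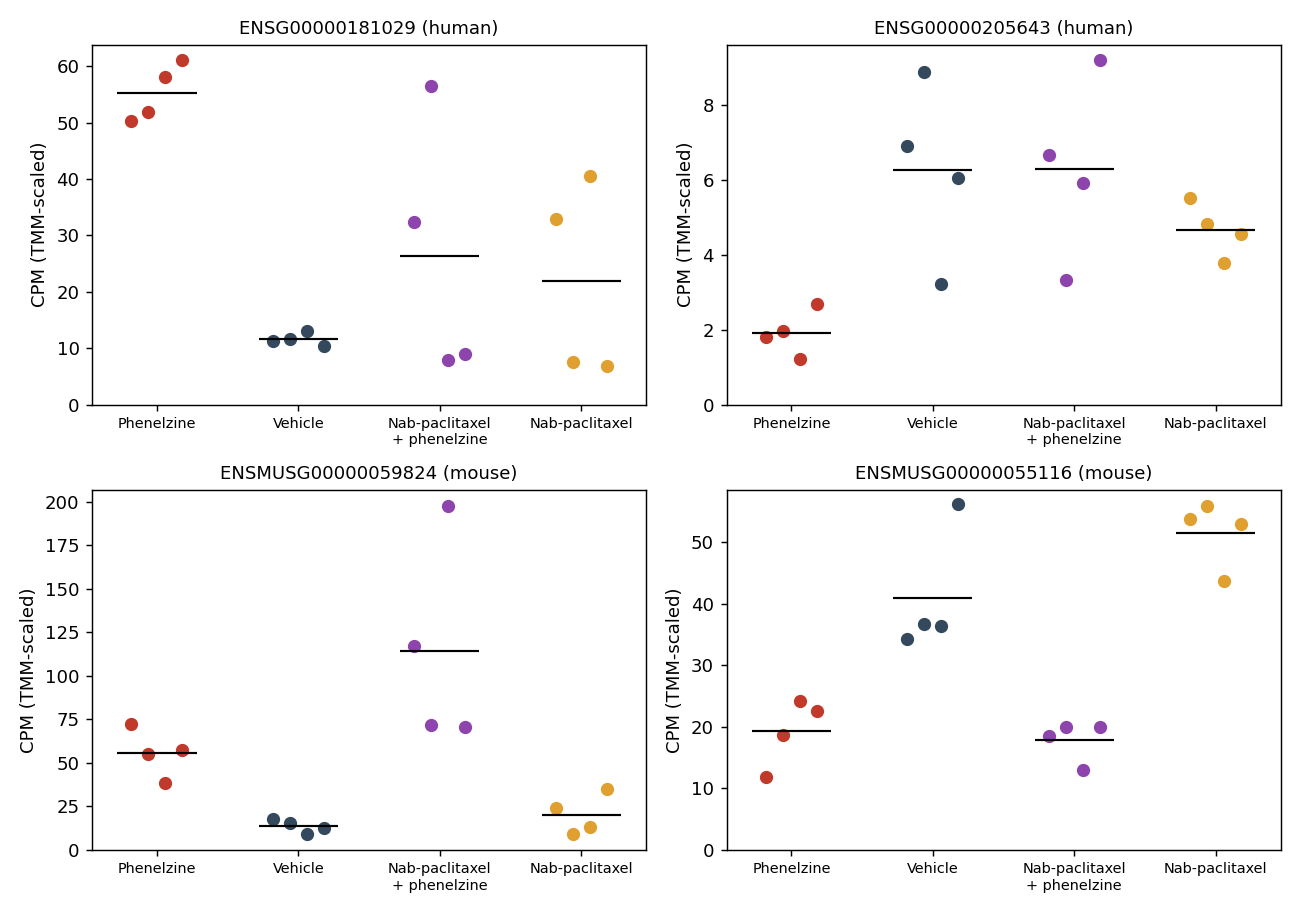
TMM-scaled CPM of 4 genes in each of the 16 tumours, with a line at each group mean, for phenelzine, vehicle, nab-paclitaxel plus phenelzine, and nab-paclitaxel. The phenelzine and vehicle points do not overlap in any panel, while the combination and nab-paclitaxel points are apart for the 2 mouse genes and overlap for the 2 human genes.

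Among the other ranked host genes, the one with the lowest p of the matrix had 171, 158, 117 and 129 CPM with phenelzine, against 62.6, 20.4, 51.1 and 14 CPM with vehicle, a log2 fold change of 1.96 (1.77 without vehicle 2). The higher gene ranked second had 46.8, 33.3, 16.9 and 32.2 CPM with phenelzine, against 12.3, 16, 11.3 and 12.4 CPM with vehicle, a log2 fold change of 1.31 (1.44 without vehicle 2). Phenelzine 3, at 16.9 CPM, barely cleared vehicle 2 at 16 CPM, and the 2 groups were otherwise well apart. The gene ranked eighth was almost level across the phenelzine tumours, at 65.8, 63.6, 62.2 and 66.9 CPM, against 8.14, 46.8, 26.2 and 9.58 CPM with vehicle, a log2 fold change of 1.49. The spread in that gene lay in the vehicle tumours, where vehicle 2 was the highest, and without vehicle 2 the log2 fold change was 2.14.

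On the lower side, the host gene ranked first had 84.9, 79.9, 83.9 and 72.8 CPM with phenelzine, against 200, 143, 142 and 101 CPM with vehicle, a log2 fold change of -0.87, with or without vehicle 2. The gene with the largest fold had 4.76, 2.86, 28.9 and 2.50 CPM with phenelzine, against 49.5, 40.3, 55.3 and 50.5 CPM with vehicle, a log2 fold change of -2.37 (-2.46 without vehicle 2). Its raw counts with phenelzine were low, at 18, 18, 99 and 14. Phenelzine 3 stood far above the other 3 phenelzine tumours there, and without it the log2 fold change was -3.86. The lower gene at rank 5 had 5.55, 16.1, 4.09 and 4.65 CPM with phenelzine, against 18.8, 21.5, 20.5 and 19.4 CPM with vehicle, a log2 fold change of -1.38 (-1.33 without vehicle 2). That gene had 21, 101, 14 and 26 raw counts with phenelzine. Without phenelzine 2, the tumour at 16.1 CPM, it was called at a log2 fold change of -2.05 (edgeR adjusted p 7.84e-05).

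The calls of DESeq2 were of 2 kinds. Of its 4 human calls, all lower, 3 were genes at 0 in all 4 phenelzine libraries and in 2 or 3 of the vehicle libraries. One of them had 495800 counts in vehicle 2 and 0 in the other 7 libraries. The remaining call was ENSG00000205643. Of its 11 mouse calls, 3 were genes at 0 in 1 whole group, and the other 8 were detected in all 8 libraries, had groups that did not overlap and are among the ranked genes above. Genes at 0 in 1 library and at 1000 counts or more in another of the 8 numbered 12 in human and 34 in mouse. Of the mouse genes, 30 were highest in vehicle 2. These are raw counts, and vehicle 2 had 14.4 M mouse counts, against 3.46 to 6.38 M in the other 7 libraries. It therefore reaches 1000 counts at a lower CPM.

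The combination against nab-paclitaxel alone asks about phenelzine a second time, in 8 other tumours that share no library with the first comparison but do carry nab-paclitaxel. Across genes, the log2 fold changes of the 2 comparisons had a Pearson r of -0.041 (Spearman -0.080) over 18131 human genes and -0.236 (Spearman -0.225) over 15074 mouse genes, as a description across genes that are not independent. Of the 426 human genes with an unadjusted p under 0.05 in the first comparison, 180 had the same sign in the second, beside 8358 of all 18131. Of the 921 mouse genes it was 314, beside 6334 of all 15074. Without vehicle 2, a check added after the data were seen, the mouse r was -0.125 (Spearman -0.158), and 153 of 314 higher and 99 of 255 lower mouse genes had the same sign, beside 6651 of all 15032. The mouse share differed in opposite directions, with means of 48.3% with the combination and 36.5% with nab-paclitaxel, against 12.6% with phenelzine and 21.1% with vehicle, and its part in these values was not tested.

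A few host genes were apart in both comparisons. In the combination against nab-paclitaxel, groups did not overlap in 3.87% of all mouse genes, 2.21% higher and 1.67% lower, and in 1.54% of all human genes, 0.695% higher and 0.844% lower. Of the 161 mouse genes whose phenelzine libraries all lay above vehicle, 7 (4.35%) were also apart and higher in the second comparison, and 5 (3.11%) were apart in the opposite direction. Of the 144 lower ones, 3 (2.08%) were apart and lower again and 4 (2.78%) apart and higher. In human genes 3 of 250 higher and 1 of 274 lower genes were apart in the same direction, and 2 and 2 in the opposite one. These counts are small beside the number of genes, and same and opposite directions were of similar size.

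Both mouse IDs printed above were among those apart in both comparisons, but they were picked after their values were seen, so this is no second test. Of the ranked mouse genes, 3 of 9 higher and 1 of 11 lower were apart in the same direction in both, and 1 lower in the opposite one. ENSMUSG00000059824 had 117, 71.8, 198 and 70.9 CPM with the combination, against 23.8, 8.81, 12.9 and 35.1 CPM with nab-paclitaxel alone. That is a log2 fold change of 2.50 (SE 0.425), with an edgeR adjusted p of 0.0841, which misses the threshold. ENSMUSG00000055116 had 18.5, 19.9, 12.9 and 19.9 CPM with the combination, against 53.7, 55.8, 43.6 and 52.9 CPM with nab-paclitaxel alone, and fell there, with a log2 fold change of -1.53 (SE 0.222) and an edgeR adjusted p of 0.0285. It was 1 of 3 mouse genes called in that comparison (0.0199%), where 1 human gene was called (0.00552%). Every tumour that received phenelzine, with or without nab-paclitaxel, had a lower level of it than every tumour that did not.

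Of the ranked host genes, 7 of 9 higher and 5 of 11 lower had the same sign in the second comparison. Over all host genes from which they were picked it was 55 of 125 higher and 48 of 125 lower. The higher gene ranked second had a log2 fold change of 1.71 there (adjusted p 0.0641), and the one ranked eighth 1.67 (adjusted p 0.657). The gene with the lowest p of all, at 1.96 in the first comparison, had 0.41 in the second (adjusted p 0.890). The lower gene at rank 3 was apart in both with opposite signs, at -1.40 (-1.11 without vehicle 2) and 0.74. It had 11, 21, 11 and 19 raw counts with phenelzine, so it is a gene of low level. Of the ranked tumour genes, 6 of 9 higher and 2 of 10 lower had the same sign, beside 72 of 152 and 84 of 189 over the tumour genes from which they were picked, and none was apart in both.

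**Figure D5:**
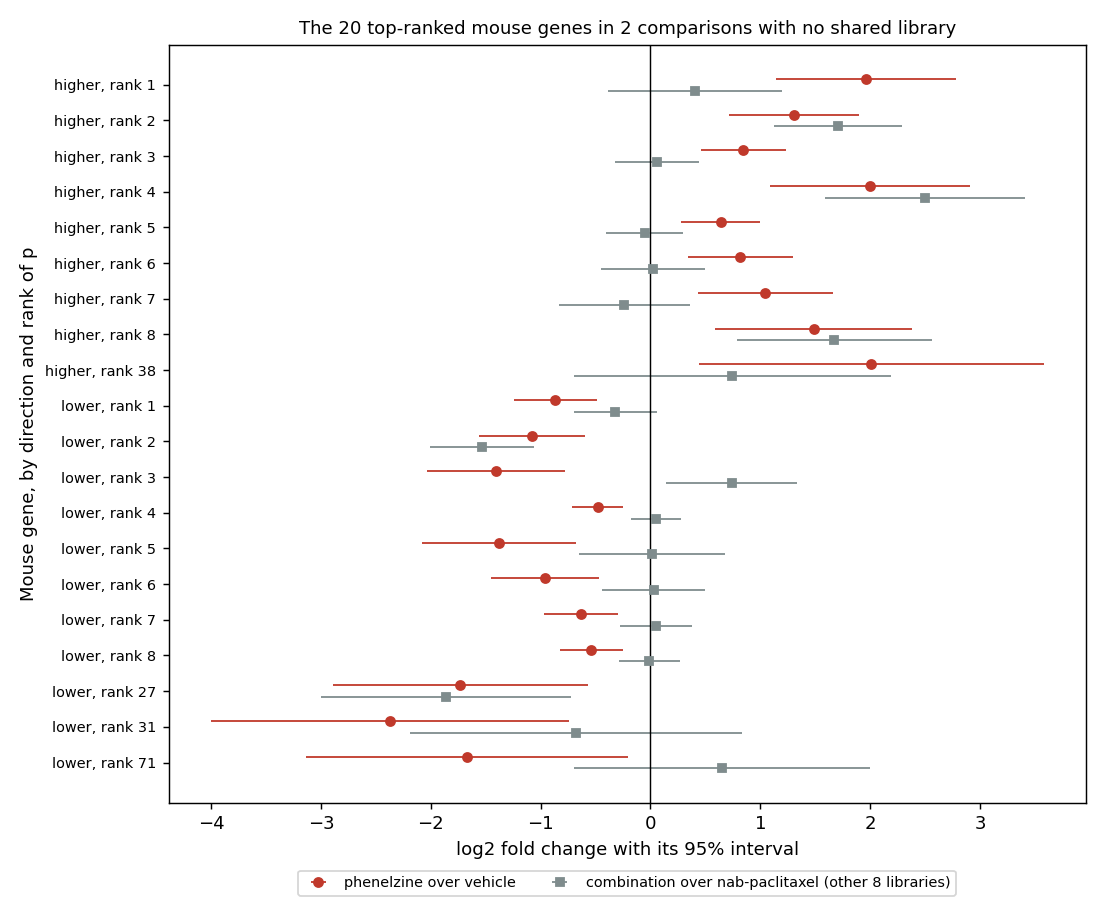
Log2 fold changes with 95% intervals of the 20 ranked mouse genes, phenelzine over vehicle (circles) and combination over nab-paclitaxel in the other 8 libraries (squares). The higher genes at ranks 2, 4 and 8 and the lower genes at ranks 2 and 27 lie on the same side in both, with both intervals clear of 0.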

How the data were processed

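The authors deposited raw whole-number counts, in 1 matrix of human and 1 of mouse genes over the same 16 libraries, made from TruSeq mRNA paired-end libraries per the labels' protocols. Per the submitters' processing notes, which give no roles, the tools were Trimmomatic 0.36, HISAT2 2.04, Picard, StringTie and edgeR, with builds hg38 and mm10. The sources used here do not say how reads were divided between species or counted, nor which strand setting or annotation was used. Misassigned reads, near-identical copies and overlapping genes could therefore affect single genes and were not assessed.

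Human and mouse counts were fitted separately in edgeR 4.0.16 (R 4.3.3) after edgeR's low-count filter at a minimum count of 10 and TMM scaling. The quasi-likelihood fit had 1 mean per group and 12 residual degrees of freedom, with all 16 libraries sharing 1 estimate of the spread. P-values were adjusted by Benjamini-Hochberg over all genes tested, with a threshold of 0.05. CPM are TMM-scaled, and spread, distances and components used log2(CPM + 0.5). The mouse share is the percentage of the counts of both matrices, and its test was an exact two-sided permutation. Wilson 95% intervals of the share in the 8 libraries were at most 0.0308 points wide and cover counting error only. Alternatives used DESeq2 1.42.0, limma 3.58.1 (voom, always with quality weights for the libraries), and other scalings and filters. They also used the mouse share as a covariate, a replicate block, the 8 libraries alone and each library left out. The scripts were tested on simulated data. No library repeated another of its group (chi-square per degree of freedom at least 43.8 in human and 14.1 in mouse genes), and 0 columns were left unused.

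Genes, lists and tests were chosen with earlier results of these data known. The ranked genes are, in each matrix and direction, the 8 with the lowest p and the 3 with the largest fold among genes with no overlap whose higher group averaged 5 CPM or more. The rule also asked for a gene symbol and named drug targets and gene list members, which could not be applied with no symbols. The correlations of deviations between same-numbered libraries were 0.114, 0.221, 0.269 and 0.277 in the mouse matrix. The vehicle library that matched best had the same number for phenelzine 3 and 4 and another number for phenelzine 1 and 2. The labels do not say what a number marks. Numbers were therefore taken as pairs only in the replicate block, an alternative, and the main fits and the main test of the mouse share were unpaired.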

Additional observations from a re-analysis of the deposited data

Results flagged for a closer look

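In the ranked genes and the mouse share of counts, 80 groups of 4 values were screened for a value far from the other 3 of its group. Such a value was found in 4 groups (5%). The limit used flags about 1 in 20 groups of unselected normal values. Nearly all groups here came from genes picked for no overlap, so the 5% cannot be set against that rate. In the phenelzine group, the lower mouse gene at rank 5 had 16.1 CPM in phenelzine 2, and the lower mouse gene at rank 31 had 28.9 CPM in phenelzine 3, each well above its group. In the vehicle group, the higher human gene ranked second had 29.4 CPM in vehicle 4, below its group, and ENSMUSG00000055116 had 56.3 CPM in vehicle 4, above its group.

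The lower mouse gene at rank 3 was lower with phenelzine than with vehicle in every tumour and higher with the combination than with nab-paclitaxel in every tumour. The interaction was 2.14 on the log2 scale, with an edgeR adjusted p of 0.60, so the difference did not pass the test.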

How the results depend on the processing

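No gene was called in either species with relative log expression factors, library totals, no filter on low counts, limma voom, the mouse share as a covariate or the replicate block. The fit of the 8 libraries alone called 1 human gene, and DESeq2 called 4 human and 11 mouse genes. Leaving out 1 library gave 0 to 1 human calls (1 without phenelzine 2) and 0 to 3 mouse calls (3 without phenelzine 2 and 1 without phenelzine 3). The share of intervals within 2-fold was, in the fit of 8 libraries, 77.1% in human and 62.1% in mouse genes. It was 36.6% and 36.3% with no filter, which adds genes of low count, and 64.5% and 61.7% with the covariate. It ran from 57.3% to 58.5% and from 50.6% to 59.7% with 1 library left out. The mouse share difference ran from -10.9 to -2.81 points with 1 library left out. The ranked genes kept their direction in all 304 human and 320 mouse gene-by-alternative values, of which 2 human and 9 mouse ones became calls. They were picked for groups that did not overlap, so leaving out 1 library could hardly reverse a direction, and the kept direction is no test. Across these alternatives the causes were not tested.

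At an unadjusted p under 0.05, beside the 426 human and 921 mouse genes of the report, the fit of 8 libraries gave 771 and 478, and no filter 834 and 1462. For human genes limma voom gave 1091 and the covariate 776. For mouse genes it was 569 without vehicle 2 and 2019 without vehicle 4. Mouse genes split into 528 higher and 481 lower with limma voom, which weights libraries by quality. The split was 264 and 367 with the covariate, and 322 and 486 with the replicate block. With the replicate block 0 human and 0 mouse genes were called, and the mouse share difference was -8.40 points (exact sign-flip permutation p = 0.25). Same-numbered human libraries had correlations of -0.005, 0.125, 0.008 and -0.062, and no pairing was read from them.

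With 4 tumours a group, the median 95% interval reached 0.56 log2 units to either side in human and 0.61 in mouse genes. These are unadjusted intervals, and a call needed a far lower p. In the fit of all 16 libraries even ENSG00000181029, at 2.26, was not called, though the fit of the 8 libraries alone called it. For genes under 1 CPM intervals within 2-fold were 7.16% in human and 0.239% in mouse genes. A test that misses the threshold does not show that phenelzine left a gene as it was. Host genes rest on 3.46 to 14.4 M counts a library and tumour genes on 23.7 to 34.5 M.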
